A study of Mus musculus with 20 samples.

Results

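The nuclear-encoded subunits of the respiratory chain were followed in inguinal subcutaneous fat across the mouse estrous cycle. The members were the protein-coding rows of the deposited expression table whose gene symbol began with 1 of 16 prefixes, from Ndufa and Ndufb of complex I to Atp5 of the ATP synthase, and these numbered 95 of 35841 rows. The rule used gene names and no expression value. It took in 80 subunits, of which 36 belong to complex I, 4 to complex II, 8 to complex III, 17 to complex IV and 15 to complex V. The other 15 members are assembly or related factors, namely Ndufaf1 to Ndufaf8, Sdhaf1 to Sdhaf4, Atp5s, Atp5sl and Cox7a2l. Ndufa4 and Ndufa4l2 were counted with complex IV, where Ndufa4 is now placed. The rule missed subunits with other names, such as Cyc1 of complex III.

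Fat pads came from 20 female C57BL/6 mice 8 weeks of age, with 5 mice at each of 4 stages, proestrus, estrus, metestrus and diestrus, read from daily vaginal smears. No treatment and no altered allele is named for these mice, and each gave 1 library of polyadenylated RNA. Mammary epithelium and a lymph node lie in the same depot, and in a bulk sample fewer cells of a type cannot be told apart from less RNA per cell. By the paper's account the first RNA of proestrus-2 was too low in quality, and RNA from another stored portion of that animal's fat was used. Metestrus-3 held muscle transcripts far above the other libraries, as given below.

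Complexes I to IV pass electrons from NADH and succinate to oxygen, complexes I, III and IV pump protons across the inner mitochondrial membrane in doing so, and complex V, the ATP synthase, uses the proton gradient to make ATP. A few of their subunits are encoded in mitochondrial DNA, and all others are encoded in the nucleus, made in the cytosol and imported. White adipocytes hold fewer mitochondria than brown or beige adipocytes, in which Ucp1 lets protons back across the membrane to release heat. Several subunits of complex IV exist in a broadly expressed form and in a form of heart, skeletal muscle or brown fat.

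Promoters of the subunits are shown because regulators of mitochondrial genes are known to bind short motifs in them. Windows of 250 bases before to 50 bases after the start of transcription were available for 77 of the 95 members in RefSeq (GRCm38.p6), matched by symbol. Printed here are the 150 bases before the start, 5′ to 3′ on the strand of the gene, for 3 subunits from different complexes that hold several such motifs and for 3 complex IV genes whose levels are described further on. The ubiquitous Cox6a1 (chr5:115348959-115349108, minus strand), the membrane anchor Sdhd of complex II (chr9:50603850-50603999, minus strand) and Atp5g3, a gene of subunit c of the ATP synthase rotor (chr2:73911327-73911476, minus strand), are the 3 chosen for their motifs. Cox8a (chr19:7217617-7217766, minus strand) is the broad form of subunit 8, and its window holds matches of the ETS motif. Cox8b (chr7:140900447-140900596, minus strand) and Cox7a1 (chr7:30184021-30184170, plus strand) are the forms of muscle and brown fat. Capitals mark matches of the motifs of NRF1 (GCGCANGCG), ETS factors (CCGGAAG), YY1 (AAGATGGC) or ERR (AAGGTCA) on either strand.
Cox6a1: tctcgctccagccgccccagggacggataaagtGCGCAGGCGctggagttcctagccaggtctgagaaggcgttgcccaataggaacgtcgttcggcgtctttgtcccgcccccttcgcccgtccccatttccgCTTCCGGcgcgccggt
Sdhd: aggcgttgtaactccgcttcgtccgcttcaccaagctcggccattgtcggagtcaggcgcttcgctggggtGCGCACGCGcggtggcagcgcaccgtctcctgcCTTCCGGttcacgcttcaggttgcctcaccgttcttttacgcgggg
Atp5g3: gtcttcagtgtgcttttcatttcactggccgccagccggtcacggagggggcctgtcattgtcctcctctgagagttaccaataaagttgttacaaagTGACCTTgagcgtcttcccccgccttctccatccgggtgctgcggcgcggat
Cox8a: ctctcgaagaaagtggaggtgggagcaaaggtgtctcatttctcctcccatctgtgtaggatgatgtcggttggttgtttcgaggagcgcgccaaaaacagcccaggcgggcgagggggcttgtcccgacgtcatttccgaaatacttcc
Cox8b: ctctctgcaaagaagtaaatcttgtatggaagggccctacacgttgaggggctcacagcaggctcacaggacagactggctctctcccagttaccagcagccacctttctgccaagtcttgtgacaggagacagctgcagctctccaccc
Cox7a1: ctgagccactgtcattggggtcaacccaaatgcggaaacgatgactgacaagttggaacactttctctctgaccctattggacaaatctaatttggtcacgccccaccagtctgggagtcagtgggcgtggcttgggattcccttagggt

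The NRF1 motif was found in 24 of the 77 members with a window (31.2%). Set beside them were the 9370 protein-coding genes with a window and at least 1 FPKM in 5 or more libraries, of which 15.2% held it. The ETS motif was in 21 members (27.3%) against 20.0% of these genes, the YY1 motif in 10 (13.0%) against 5.24%, and the ERR motif in 8 (10.4%) against 3.85%. Any of the 4 was present in 46 members. The TATAAA letters of a TATA box were in 7 members (9.09%), close to the 8.88% of the same 9370 genes. In Cox6a1 an NRF1 match began 117 bases before the start and 2 more, which overlap each other on opposite strands, at 162 and 161 bases, outside the printed stretch. Its ETS match began 16 bases before the start. Sdhd held an NRF1 match at 79 and an ETS match at 46 bases before the start, and an ERR match 37 bases after it. In Atp5g3 an ERR match lay 52 bases before the start and an NRF1 match 14 bases after it. The matches of Cox8a were to the ETS motif, 1 beginning 5 bases before the start, and so not whole in the printed stretch, and 1 at 33 bases after it. Cox8b held TATAAA 5 bases after its RefSeq start and Cox7a1 held none of the 5 motifs in its window. These matches describe letters in the reference sequence and not binding.

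The files give FPKM, fragment counts divided by transcript length and by the fragments mapped in the library. They are shares of a library, so that a larger share of other transcripts lowers these values. Levels of different genes are compared here only on this scale, which is per length. Among the subunits the highest mean over 20 mice was that of Atp5b, the catalytic beta subunit of the ATP synthase, at 313 FPKM. Within complex IV it was Cox6b1, a subunit on the outer face of the complex, at 282 FPKM. Complex III was led by Uqcrh, the hinge protein, at 165 FPKM, complex I by the accessory subunit Ndufb9 at 159 FPKM and complex II by Sdha, the flavoprotein that oxidises succinate, at 144 FPKM. Low levels were those of the testis isoform Cox6b2 at 0.679 FPKM, the lung isoform Cox4i2 at 3.63 FPKM and the muscle isoform Cox6a2, whose median was 0.257 FPKM and whose mean rested on metestrus-3. Of the assembly or related factors 14 of the 15 lay between 1.94 FPKM (Sdhaf3, a factor of complex II) and 16.6 FPKM (Sdhaf4), where low subunits such as Ndufa4l2 at 4.49 FPKM and Ndufb7 at 12.3 FPKM lay too. The remaining factor, Cox7a2l, was at 104 FPKM. All 80 subunits, Cox6a2 and Cox6b2 among them, together took 2.33% ± 0.300 (SD, n = 5) of the FPKM of nuclear genes in proestrus mice. This share was 1.96% ± 0.217 in estrus mice, 1.99% ± 0.226 in metestrus mice and 2.33% ± 0.363 in diestrus mice. The range over all mice was 1.71% in estrus-3 to 2.77% in proestrus-4.

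Transcripts of the respiratory chain were compared among the 4 stages to ask whether they vary with the cycle. Levels of most subunits were on average higher at proestrus and diestrus than at estrus and metestrus, but 0 of 93 members differed among the stages at an adjusted p under 0.05 by the F test of limma on log2(FPKM + 1), where 103 of 13987 genes tested (0.736%) did. At an unadjusted p under 0.05 the count was 6 of 93 members (6.45%), below the 10.7% of all genes. All members but Cox6a2 and Cox6b2 reached the minimum of 1 FPKM in 5 libraries and were tested, that is 78 subunits and 15 factors. The smallest p belonged to Uqcrq, a small subunit of complex III (unadjusted p = 0.0133, adjusted p = 0.269, limma).

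In the 6 pairs of stages 0 members were called as well, beside 20 of all genes (0.143%) from proestrus to estrus, 31 (0.222%) from estrus to metestrus, 173 (1.24%) from metestrus to diestrus, 2 (0.0143%) from diestrus to proestrus, 123 (0.879%) from proestrus to metestrus and 0 (0.00%) from estrus to diestrus. The lowest adjusted p of a member was 0.197 (Uqcrq, proestrus to metestrus, limma). From proestrus to estrus the estimate was below 0 for 77 of 78 subunits and 88 of 93 members, against 39.2% of all genes, and the median log2 change of the subunits was -0.26 where that of all genes was 0.05. At an unadjusted p under 0.05, 19 of 93 members were lower at estrus (20.4%, with 2.06% of all genes) and 0 were higher (4.63% of all genes were). From estrus to diestrus 75 of 78 subunits had an estimate above 0, against 35.0% of all genes, with a median of 0.24 (all genes -0.06), and 13 of 93 members were higher at an unadjusted p under 0.05 (2.40% of all genes) and 1 was lower (3.68%). From proestrus to metestrus 75 of 78 subunits had an estimate below 0 (52.3% of all genes), with a median of -0.18 (all genes -0.01), and 13 of 93 members were lower at an unadjusted p under 0.05 (4.23% of all genes). From metestrus to diestrus 68 of 78 were above 0 (49.6% of all genes), with a median of 0.16 (all genes 0.00), and 5 members (5.38%, with 5.46% of all genes) were higher. Estrus to metestrus and diestrus to proestrus had medians of 0.07 and 0.04, with 1 member higher at an unadjusted p under 0.05 in each (2.90% and 2.19% of all genes), and the latter median was -0.03 when every library was scaled to an equal total.

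These counts at an unadjusted p depended on single libraries. The 19 members lower from proestrus to estrus became 3 without estrus-1 (1.63% of all genes) and 43 without proestrus-2 (3.60%), and the 13 higher from estrus to diestrus became 1 without estrus-3 (2.04%) and 42 without diestrus-3 (3.97%). The 13 lower from proestrus to metestrus became 6 without proestrus-4 (3.58%) and 25 without proestrus-2 (4.96%). The 5 higher from metestrus to diestrus became 1 without metestrus-2, diestrus-2 or diestrus-5 (5.93%, 4.55% and 4.84%) and 21 without diestrus-3 (6.52%). The subunit median from diestrus to proestrus was -0.05 without diestrus-3 and -0.04 without proestrus-4, so that its direction rested on those mice. The medians of the other 5 pairs kept their sign whichever library was left out, but that from estrus to metestrus was only 0.0061 without metestrus-1. Comparisons with a stage in common share its 5 libraries, so their values are not independent of each other, and subunits of one library rise and fall together, so their number does not count independent tests.

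**Figure D1:**
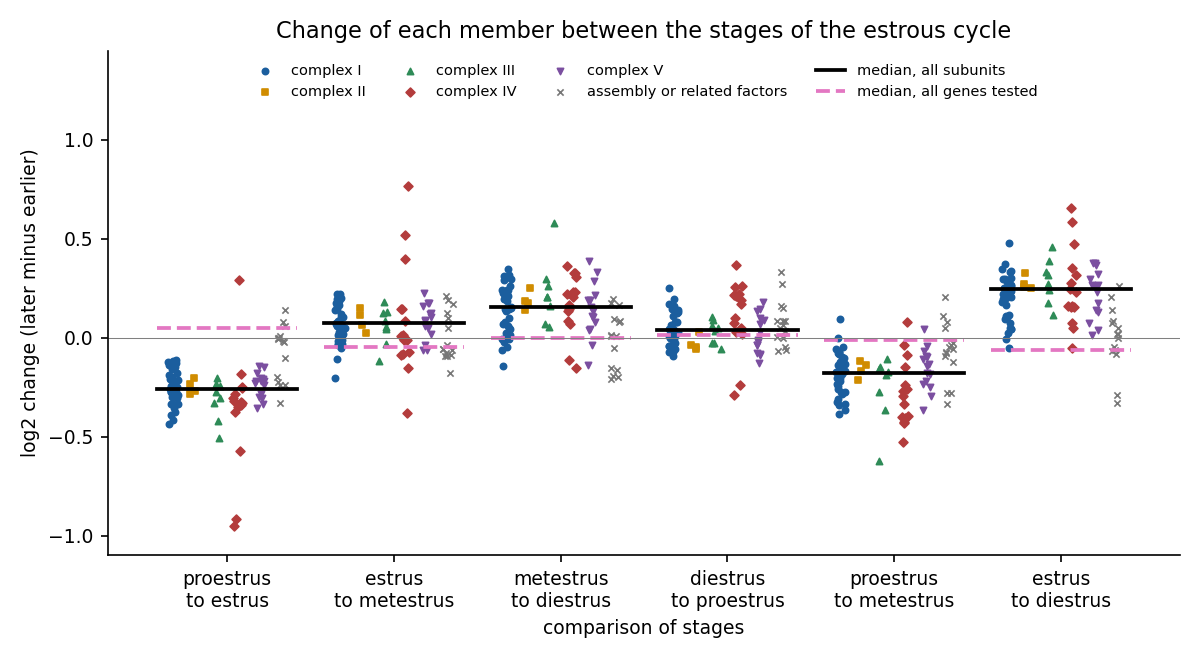
Each point is 1 of the 93 tested members in 1 of 6 comparisons of stages, with the log2 change (later minus earlier, on log2(FPKM + 1)) on the vertical axis and colours for complexes I to V and the assembly or related factors. Solid lines are medians of the 78 subunits and dashed lines medians of all 13987 genes, and from proestrus to estrus the subunit points lie below 0 but for 1, with a median of -0.26.

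The medians of the 5 complexes all had the same sign in every comparison but diestrus to proestrus. From estrus to metestrus that of complex IV was only 0.0093. From proestrus to estrus the median log2 change was -0.25 over the 36 subunits of complex I, -0.25 over the 4 of complex II, -0.29 over the 8 of complex III, -0.32 over 15 of complex IV and -0.22 over the 15 of complex V. The factors had a median of -0.02, and 4 of the 15 had an estimate above 0. From estrus to diestrus the medians were 0.22, 0.26, 0.29, 0.23 and 0.26 for complexes I to V and 0.02 for the factors. The 7 core subunits of complex I, which carry its flavin and iron-sulphur clusters, had a median of -0.28 from proestrus to estrus and 0.26 from estrus to diestrus. From proestrus to metestrus complex IV had a median of -0.30 and complex V of -0.14. The complexes differed in sign from diestrus to proestrus, with medians of 0.04 for complexes I and III, 0.17 for complex IV (13 of 15 estimates above 0), -0.04 for complex II and -0.01 for complex V. Differences between the complexes were not tested.

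Single members spread widely between mice of one stage. Uqcrq (chromosome 11, 53427922 to 53430831 of GRCm38) was at 82.5, 54.6, 92.7, 102 and 58.2 FPKM in proestrus-1 to proestrus-5, 43.3, 53.5, 43.99, 56.7 and 72.2 in estrus-1 to estrus-5, 72.7, 44.05, 40.4, 47.5 and 44.7 in metestrus-1 to metestrus-5, and 76.4, 84.8, 50.4, 68.7 and 93.9 in diestrus-1 to diestrus-5. Its values were at 50.4 FPKM or more in every mouse of proestrus and diestrus and at 40.4 to 47.5 FPKM in 4 of the 5 mice of metestrus, with the stages overlapping through metestrus-1. Its log2 change was -0.63 (SE 0.21) from proestrus to metestrus and 0.58 (SE 0.21) from metestrus to diestrus (adjusted p = 0.197 and 0.206, limma), with 5 mice in each stage.

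Cox5a (chromosome 9, 57521274 to 57532426 of GRCm38), which with Cox4 forms an early intermediate of complex IV, was at 48.1, 37.8, 53.1, 62.7 and 36.6 FPKM in proestrus-1 to proestrus-5, 23.5, 34.4, 26.9, 31.3 and 42.4 in estrus-1 to estrus-5, 45.7, 30.5, 32.8, 33.1 and 32.4 in metestrus-1 to metestrus-5, and 39.5, 45.6, 28.1, 42.1 and 48.02 in diestrus-1 to diestrus-5. Estrus held the lowest values, but estrus-5 stood above 2 of the mice of proestrus. The log2 change from proestrus to estrus was -0.57 (SE 0.18, adjusted p = 0.576, limma). Cox6b1 was at 320.2 ± 52.5 FPKM (SD, n = 5) in proestrus mice, 255 ± 36.4 in estrus mice, 241 ± 38.7 in metestrus mice and 311 ± 57.04 in diestrus mice, with a log2 change of -0.41 (SE 0.15, adjusted p = 0.271) from proestrus to metestrus. Ndufa4 (chromosome 6, 11900292 to 11907497 of GRCm38), once assigned to complex I, was at 83.9, 67.7, 86.3, 99.3 and 68.9 FPKM in proestrus-1 to proestrus-5, 54.8, 71.4, 56.4, 62.1 and 82.9 in estrus-1 to estrus-5, 65.1, 63.1, 61.3, 59.7 and 55.8 in metestrus-1 to metestrus-5, and 61.9, 73.2, 52.01, 65.7 and 87.2 in diestrus-1 to diestrus-5. Its 5 proestrus values lay above its 5 metestrus values without overlap, as those of 1.08% of all genes did in this direction, and the log2 change was -0.39 (SE 0.14, adjusted p = 0.235).

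Of complex I, the accessory subunit Ndufb7 was at 14.3 ± 3.82 FPKM (SD, n = 5) in proestrus mice, 10.6 ± 1.05 in estrus mice, 10.5 ± 1.70 in metestrus mice and 13.7 ± 2.47 in diestrus mice, and Ndufa11, a membrane subunit, had its lowest value, 10.7 FPKM, in metestrus-4 and its highest, 26.1 FPKM, in proestrus-4. Sdha of complex II was at 157 ± 20.9 FPKM (SD, n = 5) in proestrus mice, 129 ± 19.03 in estrus mice, 139 ± 19.9 in metestrus mice and 153 ± 18.1 in diestrus mice. In complex III the core subunit Uqcrc2 was at 107, 94.2, 116, 121 and 87.1 FPKM in proestrus-1 to proestrus-5, 65.9, 90.02, 83.8, 89.8 and 94.6 in estrus-1 to estrus-5, 109.9, 94.7, 83.1, 94.6 and 81.5 in metestrus-1 to metestrus-5, and 109, 112, 89.8, 103 and 121 in diestrus-1 to diestrus-5. Estrus-1 had the lowest value and proestrus-4 and diestrus-5 the highest, and the log2 change from estrus to diestrus was 0.33 (SE 0.12, adjusted p = 0.680, limma). Uqcr10, a small subunit of complex III, had a log2 change of -0.42 (SE 0.17, adjusted p = 0.702) from proestrus to estrus. Of complex V, Atp5b was at 343 ± 70.5 FPKM (SD, n = 5) in proestrus mice, 269 ± 33.7 in estrus mice, 288 ± 52.6 in metestrus mice and 353 ± 69.8 in diestrus mice.

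Among the factors Ndufaf8, an assembly factor of complex I (chromosome 11, 120098928 to 120100705 of GRCm38), was at 12.6, 9.66, 15.03, 16.8 and 12.97 FPKM in proestrus-1 to proestrus-5, 10.2, 11.1, 10.6, 9.55 and 10.03 in estrus-1 to estrus-5, 11.3, 10.5, 10.98, 10.5 and 10.3 in metestrus-1 to metestrus-5, and 10.5, 10.4, 9.16, 9.56 and 12.1 in diestrus-1 to diestrus-5. Its mean at proestrus rested on 4 of the 5 mice, since proestrus-2 was below every mouse of metestrus. With all 20 libraries its log2 change from proestrus to estrus was -0.33 (SE 0.11, adjusted p = 0.5997, limma). Without proestrus-2 it was the member called, at -0.43 (adjusted p = 0.0435) from proestrus to estrus, where 46 of 13900 genes (0.331%) were called, and at -0.38 (adjusted p = 0.0311) from proestrus to metestrus, where 329 (2.37%) were. Sdhaf1, which helps to insert the iron-sulphur clusters of complex II, was at 7.54 ± 1.24 FPKM (SD, n = 5) in proestrus mice, 6.22 ± 0.976 in estrus mice, 5.76 ± 0.817 in metestrus mice and 6.60 ± 0.524 in diestrus mice.

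**Figure D2:**
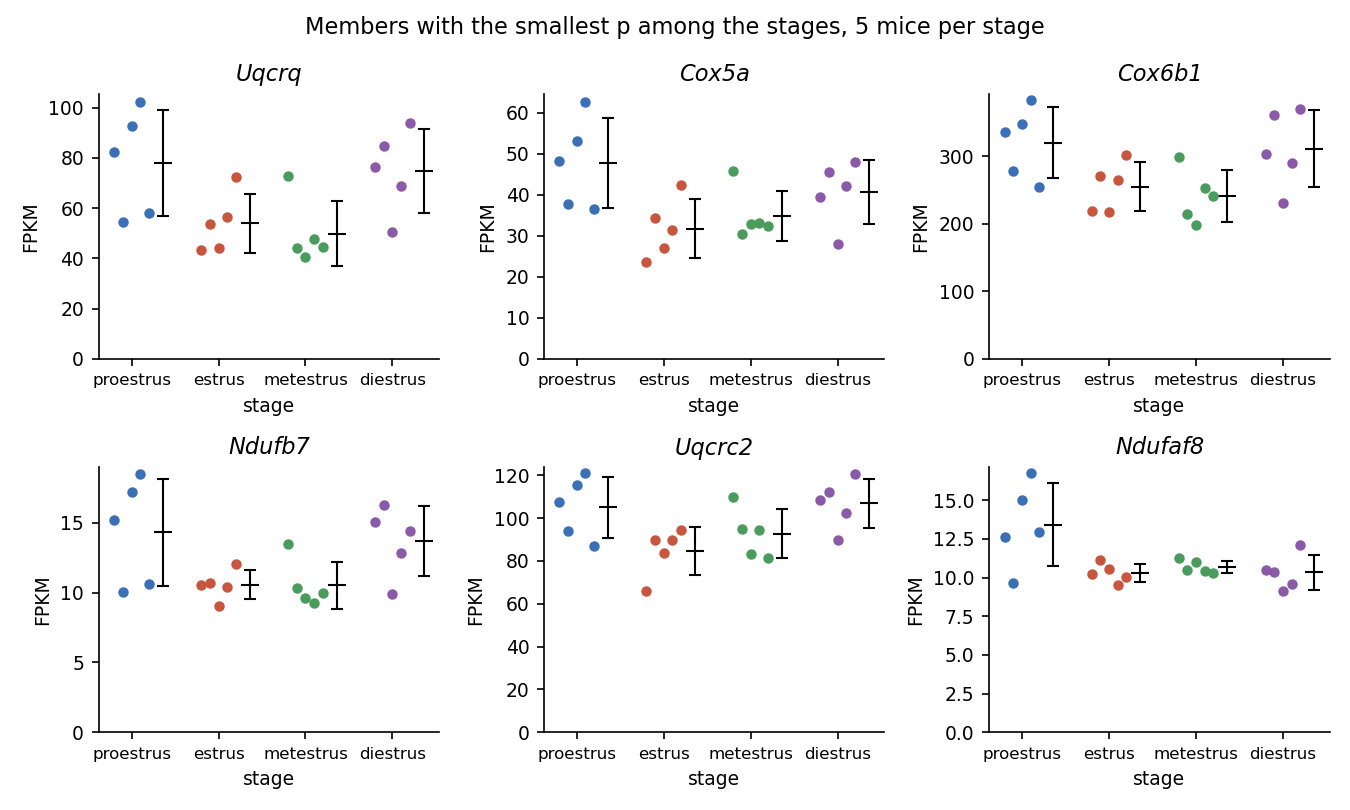
FPKM of the 5 subunits Uqcrq, Cox5a, Cox6b1, Ndufb7 and Uqcrc2 and of the factor Ndufaf8, all 6 of the members at an unadjusted F test p under 0.05, with 1 point per mouse and the mean and SD of 5 mice beside each stage. The means of the 5 subunits are higher at proestrus and diestrus than at estrus and metestrus, and the ranges of the stages overlap in every pair, as for Uqcrq with 54.6 to 102 FPKM at proestrus and 43.3 to 72.2 FPKM at estrus.

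Between single mice the subunits moved together. In diestrus-5 all 78 tested subunits were above their own median over the 20 libraries, and in estrus-3 the count was 0, while 39.1% and 63.8% of all genes were above theirs. The counts in proestrus-1 to proestrus-5 were 72, 14, 77, 75 and 22 of 78. They were 2, 46, 0, 13 and 70 in estrus-1 to estrus-5, 73, 8, 11, 31 and 9 in the mice of metestrus and 53, 74, 3, 49 and 78 in those of diestrus. Each stage thus held mice with nearly all subunits high and mice with most of them low. With libraries scaled to nuclear genes or by median-ratio size factors the largest departures from these counts were in proestrus-2, with 40 and 4 subunits above their median, and in metestrus-4, with 18 and 51.

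**Figure D3:**
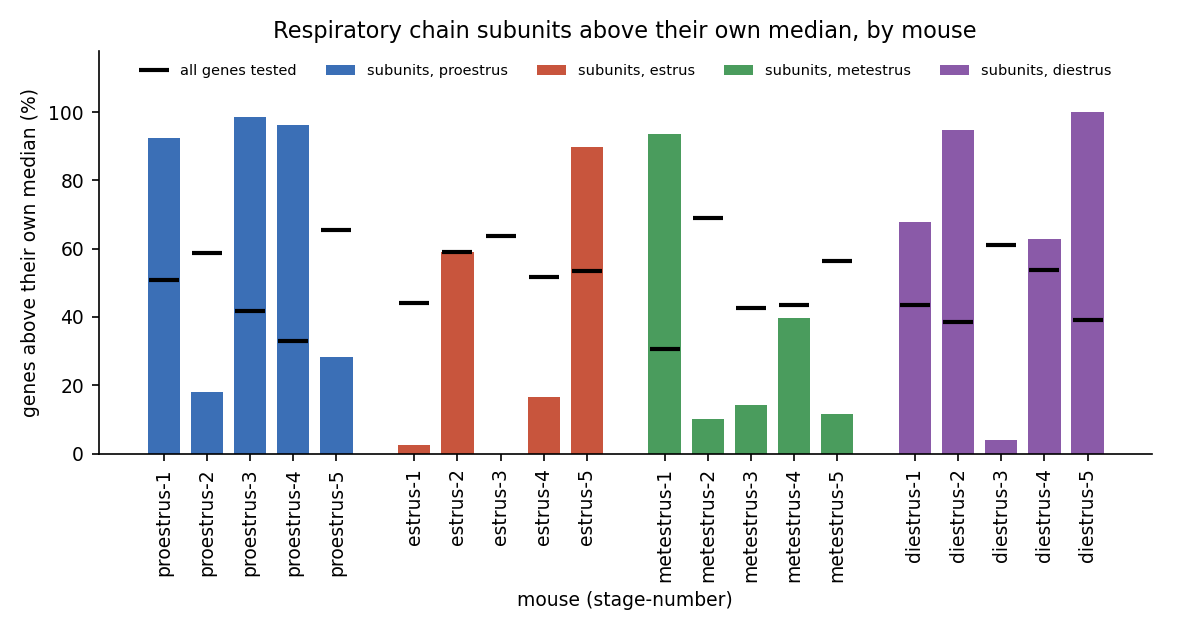
Bars give, for each mouse, the percent of the 78 tested subunits above their own median over 20 libraries, coloured by stage, and black marks the same for all 13987 genes. Bars stand at 100% in diestrus-5 and 0% in estrus-3, and each stage holds high and low bars while the marks stay between 30.5% and 69.0%.

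The level of a complex in a mouse was taken as the mean over its subunits of log2(FPKM + 1) less the gene's own mean. Over all 78 subunits this level was highest in proestrus-4 at 0.39, or 1.31-fold the average mouse, and in diestrus-5 at 0.33 (1.25-fold), and lowest in estrus-3 at -0.36 (0.777-fold) and estrus-1 at -0.35 (0.784-fold). By stage it was 0.13 ± 0.23 (SD, n = 5) in proestrus mice, -0.15 ± 0.21 in estrus mice, -0.07 ± 0.17 in metestrus mice and 0.08 ± 0.23 in diestrus mice. The means at proestrus and estrus lay farther apart than the SD within either stage, but the ranges of all stages overlapped. With median-ratio size factors they were 0.15 ± 0.37 in proestrus mice and -0.20 ± 0.24 in estrus mice, closer together than the SD at proestrus. The distance between the highest and the lowest mouse was 0.73 for complex I, 0.83 for complex II, 0.92 for complex III, 0.91 for complex IV and 0.69 for complex V. Proestrus-4 was at 0.33 to 0.46, estrus-1 at -0.49 to -0.30 and estrus-3 at -0.47 to -0.32 over the 5 complexes. Complex IV went lower than the others in diestrus-3, at -0.40 where the other complexes were at -0.26 to -0.19. The factors had a narrower level, from -0.27 in estrus-1 to 0.16 in estrus-2, where the subunits were close to their mean. Most factors lay at low FPKM, where log2(FPKM + 1) understates changes.

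**Figure D4:**
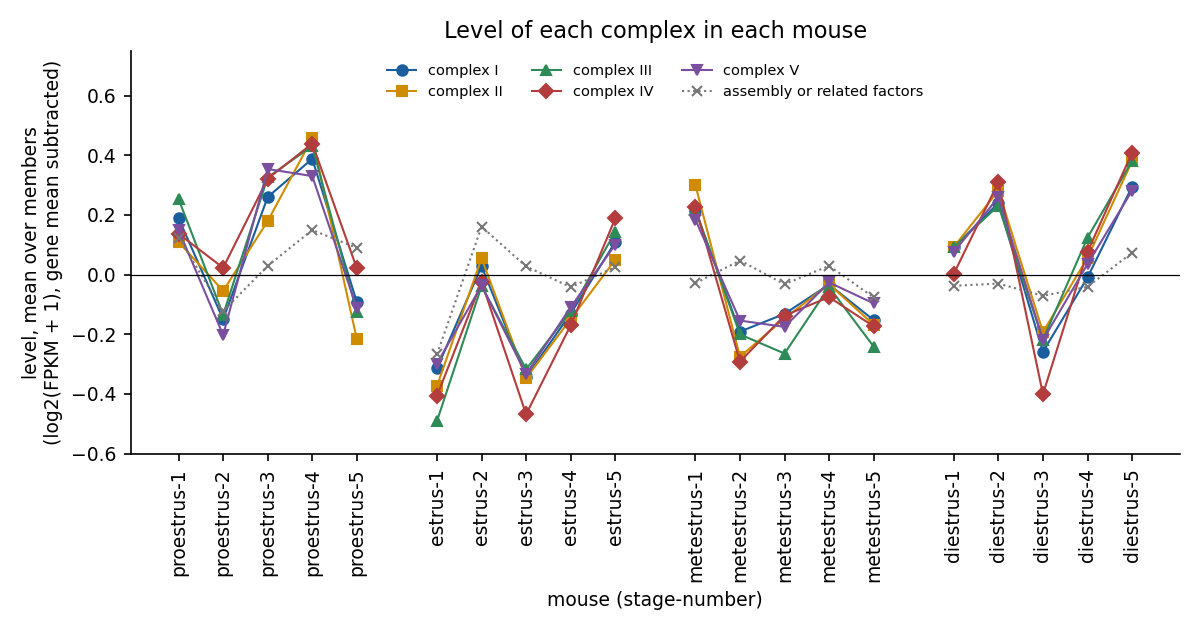
Level of each complex and of the 15 assembly or related factors in each of 20 mice, as the mean over members of log2(FPKM + 1) with the gene's mean subtracted. The lines of the 5 complexes lie close together within a mouse, from about -0.36 over all subunits in estrus-3 to 0.39 in proestrus-4. The dotted line of the factors has a narrower range, from -0.27 in estrus-1 to 0.16 in estrus-2.

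A subunit was counted as moving with the majority in a mouse when it was on the same side of its own median as most subunits. By this count 69 of 78 subunits (88.5%) were with the majority in at least 16 of 20 mice, against 1 of 15 factors (6.67%) and 5.03% of all genes. Subunits with the majority in all 20 mice included Ndufa8, Ndufa9, Ndufab1, Ndufb6, Ndufb7, Ndufb8 and Ndufv2 of complex I, Sdhb, Sdhc and Sdhd of complex II, the Rieske iron-sulphur protein Uqcrfs1, and Atp5k and Atp5l of the ATP synthase. The lowest subunits were Cox4i1, Cox4i2, Atp5g1 and Atp5g2, each with the majority in 12 mice. Atp5s was with it in 6 and Cox7a2l and Atp5sl in 8 of 20. Cox7a2l ranged from 52.9 FPKM in estrus-1 to 148 FPKM in metestrus-5, where 9 of 78 subunits were above their median. The subunits define the majority that each is set against, and all values of a mouse share 1 library, so these counts are a description. The median SD over 20 mice was 0.25 on the log2 scale for the subunits, 0.19 for the factors and 0.26 for all genes. On this scale the SD of low genes, as most factors are, is understated.

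Markers of other cell types differed between the same mice and their part in the levels was not tested. Cd79a of B cells was at 0.995 FPKM in diestrus-5 and 45.2 FPKM in proestrus-4, both with high subunits, and at 0.22 FPKM in estrus-1 and 97.6 FPKM in estrus-3, both with low subunits. The 12 lymphocyte markers summed to 3.24 to 332 FPKM at proestrus, 3.16 to 453 at estrus, 3.19 to 334 at metestrus and 6.61 to 323 at diestrus, with Cr2 at 0 in a library of metestrus. Their median log2 change had the same sign as that of the subunits in both comparisons, with -1.19 from proestrus to estrus (12 of 12 estimates below 0) and 0.80 from estrus to diestrus (0 of 12 below 0). The 15 adipocyte markers, all above 0 in every library, summed to 12168 to 16778 FPKM at proestrus, 11011 to 18018 at estrus, 11135 to 19619 at metestrus and 9744 to 18484 at diestrus. Their median log2 change was 0.10 from proestrus to estrus (6 of 15 estimates below 0) and -0.13 from estrus to diestrus (12 of 15 below 0), each opposite in sign to that of the subunits. Summed mammary epithelium markers (10 genes) were 232 to 727 FPKM and macrophage markers (8 genes) 79.7 to 454 FPKM over all mice, and red blood cell markers (5 genes) 239.8 to 1149 FPKM. The macrophage markers had medians of 0.70 (0 of 8 estimates below 0) and -0.18 (8 of 8 below 0) in these comparisons, opposite in sign to the subunits. The mammary markers had medians of -0.13 and -0.27 and the red blood cell markers 0.17 and -0.05. With a lymphocyte score in the model 0 members were called in each test, as without it, so this count cannot show what part lymphocytes had. At an unadjusted p under 0.05 (limma), 26 of 93 members were then lower from proestrus to estrus (2.37% of all genes), in place of 19. From proestrus to metestrus 17 were lower (5.24%) in place of 13, and from estrus to diestrus 17 were higher (3.03%) in place of 13. With a skeletal muscle score in the model instead, these counts in the same order were 16 (2.09%), 13 (4.03%) and 10 (2.33%).

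The other genes of oxidative metabolism were read from lists of 7 pathways, and 0 of their members were called in each pair of stages. Cyc1, the cytochrome c1 of complex III that the rule missed, was at 69.9 ± 17.4 FPKM (SD, n = 5) in proestrus mice, 49.1 ± 7.18 in estrus mice, 52.99 ± 12.6 in metestrus mice and 71.4 ± 13.2 in diestrus mice, with a log2 change of -0.48 from proestrus to estrus and 0.52 from estrus to diestrus (adjusted p of the F test 0.287, limma). Cycs, the mobile cytochrome c between complexes III and IV, had log2 changes of -0.38 and 0.62 in the same comparisons (adjusted p of the F test 0.305). The 13 enzymes of the citrate cycle had a median of -0.20 from proestrus to estrus, with 12 estimates below 0, and 0.28 from estrus to diestrus, with 0 below. Citrate synthase, Cs, was at 112 FPKM in proestrus-4 and 107 FPKM in diestrus-5, and at 66.7 and 54.9 FPKM in estrus-1 and estrus-3. The 13 subunits encoded in mitochondrial DNA had medians of -0.16 and 0.06 in these comparisons. The mitochondrial genes took 33.4% of the FPKM in proestrus-4 and 31.6% in diestrus-5, 28.6% in estrus-1 and 27.0% in estrus-3, and the lowest share was 24.1% in metestrus-5.

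Assembly factors outside the rule (31 genes) had medians of -0.06 and 0.10, nearer 0 than the subunits. The 14 regulators of mitochondrial biogenesis that were tested had medians of -0.02 and -0.02. Esrra, which binds the ERR motif, had the smallest p among them (adjusted p of the F test 0.359, limma) and was at 10.3 ± 0.786 FPKM (SD, n = 5) in proestrus mice, 9.39 ± 1.62 in estrus mice, 7.90 ± 0.706 in metestrus mice and 9.85 ± 1.21 in diestrus mice. Ppargc1a, its coactivator, was at 0.92 to 2.38 FPKM in all mice.

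Of the tissue-restricted isoforms of complex IV, Cox7a1 and Cox8b varied most between mice, while the SD of Cox4i2 was 0.33 on the log2 scale. Cox7a1 (chromosome 7, 30184144 to 30186078 of GRCm38) had the largest SD of all tested members, 0.80 on the log2 scale, and Cox8b (chromosome 7, 140898945 to 140900446 of GRCm38) the next, 0.63, where the median subunit was at 0.25. Cox8b was at 90.9, 99.2, 121, 128 and 87.9 FPKM in proestrus-1 to proestrus-5, 21.9, 79.2, 41.8, 60.8 and 110.0 in estrus-1 to estrus-5, 163, 61.3, 89.9, 94.7 and 85.7 in metestrus-1 to metestrus-5, and 70.8, 93.6, 55.95, 100.3 and 131 in diestrus-1 to diestrus-5. It was lowest in estrus-1 and estrus-3 and highest in metestrus-1, and its log2 change from proestrus to estrus was -0.92 (SE 0.34, adjusted p = 0.685, limma). Without estrus-1 that change was -0.59. Cox7a1 was at 5.48, 15.3, 9.49, 16.7 and 6.41 FPKM in proestrus-1 to proestrus-5, 3.70, 5.69, 2.996, 3.18 and 9.19 in estrus-1 to estrus-5, 11.4, 3.74, 20.6, 2.87 and 5.63 in metestrus-1 to metestrus-5, and 5.26, 14.4, 2.75, 8.02 and 11.5 in diestrus-1 to diestrus-5. Its values spanned 7.48-fold, with the lowest in diestrus-3 and the highest in metestrus-3, and all stages overlapped (log2 change from proestrus to estrus -0.95, SE 0.46, adjusted p = 0.735).

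Cox6a2 (chromosome 7, 128205435 to 128206387 of GRCm38), the heart and muscle form of subunit 6a, was at 0.520, 0.103, 0.233, 0.256 and 2.44 FPKM in proestrus-1 to proestrus-5, 0.327, 0.229, 0.675, 0.0609 and 3.02 in estrus-1 to estrus-5, 0.132, 0.120, 51.7, 0.264 and 0.198 in metestrus-1 to metestrus-5, and 1.04, 0.258, 0.0674, 0.481 and 0.00 in diestrus-1 to diestrus-5. It was at 51.7 FPKM in metestrus-3, at 3.02 FPKM or less in every other library and listed at 0 in diestrus-5. Metestrus-3 held Actn3, of fast muscle fibres, at 554 FPKM, and its 12 muscle markers summed to 9372 FPKM, where the median sum was 11.4 FPKM at metestrus and the highest sum at another stage was 458 FPKM. The highest Cox7a1, 20.6 FPKM, and the highest Atp5g1, 9.58 FPKM, were in this library too. Its Cox8b was at 89.9 FPKM, within the range of the other mice, and 11 of 78 subunits were above their own median there.

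The share of an isoform within its pair depended on the pair. Cox8b made up 25.0% ± 5.59 (SD, n = 20) of Cox8a and Cox8b together, from 8.84% in estrus-1 to 36.2% in metestrus-1. Cox7a1 was 5.69% ± 3.60 of Cox7a1 and Cox7a2, with 16.5% in metestrus-3 and 12.4% in proestrus-2. Cox6a2 was 28.5% of Cox6a1 and Cox6a2 in metestrus-3 and 1.13% or less elsewhere. Ndufa4l2, a hypoxia-induced paralogue, was 6.23% ± 2.32 of its pair with Ndufa4, and 13.9% in estrus-1. It was the subunit with an estimate above 0 from proestrus to estrus (log2 change 0.29, SE 0.23, adjusted p = 0.832, limma). Cox4i2 was 1.67% ± 0.588 of its pair with Cox4i1. Its 5 diestrus values, 3.93 to 5.57 FPKM, lay above its 5 estrus values, 1.87 to 3.65 FPKM, as those of 0.658% of all genes did in this direction (log2 change 0.47, SE 0.18, adjusted p = 0.731). Subunit c of the ATP synthase comes from 3 genes with the same mature protein, and Atp5g3 made up 71.4% ± 4.09 of their sum, Atp5g2 25.0% ± 3.79 and Atp5g1 3.62% ± 0.822. The share of Atp5g3 was 67.5% ± 3.58 at metestrus and 74.9% ± 2.59 at diestrus, and was not tested. How the authors' counting assigned reads among such paralogues was not tested.

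**Figure D5:**
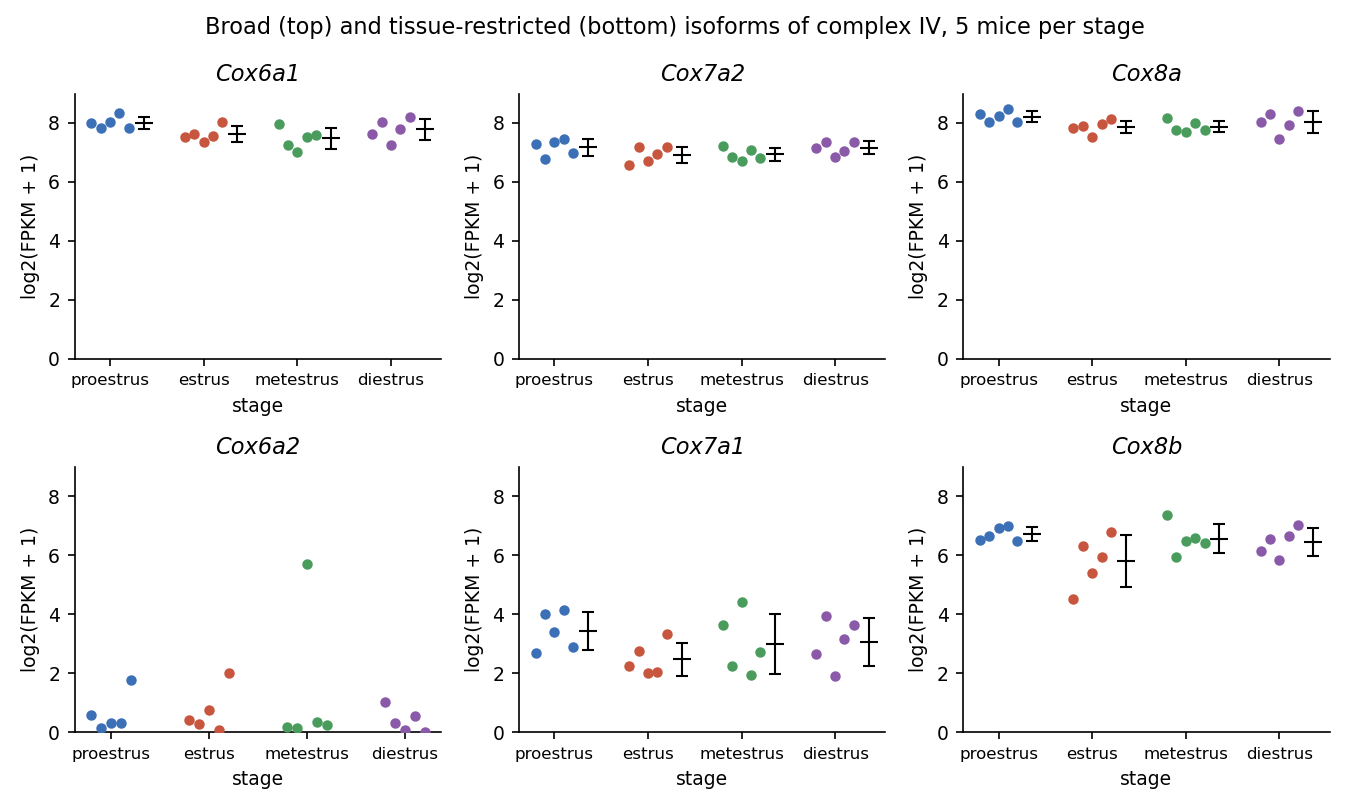
Broad isoforms (top row) and tissue-restricted isoforms (bottom row) of complex IV subunits 6a, 7a and 8 in log2(FPKM + 1), with 1 point per mouse and the mean and SD of 5 mice beside each stage, left out for Cox6a2. The metestrus-3 point of Cox6a2, at 51.7 FPKM, stands far above the rest, and the Cox7a1 and Cox8b points spread more than those of Cox7a2 and Cox8a.

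Relations of these isoforms to markers of beige fat and muscle were computed across the 20 mice on log2(FPKM + 1), in a family of 4, with permutation tests of 100000 draws. Cox8b was correlated with Ucp1 (r = 0.673, p = 0.00089, adjusted p = 0.00119, rho = 0.576, p = 0.00859, adjusted p = 0.0115). Without the 2 mice farthest from the median of Ucp1, estrus-1 and metestrus-1, r was 0.513 (adjusted p = 0.0396) and rho was 0.418 (adjusted p = 0.112, permutation), so that the rank relation did not pass without those mice. In metestrus-1 Ucp1 was at 38.6 FPKM, Cidea, another beige marker, at 147 FPKM and Cox8b at 163 FPKM, and in estrus-1 they were at 0.00, 4.91 and 21.9 FPKM. Cox7a1 had r = 0.418 with Ucp1 (permutation p = 0.0680, adjusted p = 0.0680, rho = 0.469, p = 0.0384, adjusted p = 0.0384), and without estrus-1 and metestrus-1 r was 0.329 and rho was 0.387 (adjusted p = 0.112, permutation), so that here too the rank relation did not pass without those mice. Without metestrus-3 alone r was 0.673. Cox6a2 was correlated with Actn3 (r = 0.937, permutation p = 3e-05, adjusted p = 0.00012, rho = 0.741, p = 0.00032, adjusted p = 0.00114), and r was 0.833 (adjusted p = 0.00162) without metestrus-3 and diestrus-1. Cox7a1 and Cox8b were correlated with each other (r = 0.657, permutation p = 0.00075, adjusted p = 0.00119, rho = 0.722, p = 0.00057, adjusted p = 0.00114), with r = 0.685 (adjusted p = 0.00162) without proestrus-4 and metestrus-3. Stages of 5 mice are too small for r within a stage, and FPKM of 1 library share its total. The 10 beige markers summed to 109 to 217 FPKM at proestrus, 52.0 to 152 at estrus, 113 to 328 at metestrus and 90.8 to 172 at diestrus. Ucp1 and Elovl3 were each at 0 in a library of estrus. Median log2 changes of these markers were -0.32 from proestrus to estrus, 0.53 from estrus to metestrus and 0.65 from estrus to diestrus, each with the sign of the subunits. They were 0.20 from proestrus to metestrus, -0.13 from metestrus to diestrus and -0.10 from diestrus to proestrus, each opposite in sign to the subunits. The part of these markers in the levels of the subunits was not tested.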

How the data were processed

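Polyadenylated RNA from the inguinal fat of 20 mice was sequenced by the authors, who trimmed reads with Skewer, aligned them with STAR 2.5.3a to GRCm38, counted them with HTSeq and deposited FPKM per gene and library. The submitters' processing notes also name StringTie 1.3.1c and the build hg38 beside GRCm38, and the sources used here do not say which tool made the FPKM or from which annotation release. Of 35841 identifiers 35766, and all 95 members, were found in GENCODE M21, which gave the coordinates (1-based).

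Of 36980 low values 34.7% lay within 0.1 of a whole number of reads, where chance gives 20%, so reads were not recovered, no count test was run, and the depth behind a value is unknown. FPKM summed to 373659 to 452647 per library. No pair of libraries held identical values.

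FPKM were taken to log2(FPKM + 1), which understates changes of low genes. Genes at 1 FPKM or more in at least 5 libraries (13987) were fitted with 1 mean per stage by limma 3.58.1 under R 4.3.3, with variances moderated by empirical Bayes along a trend. The F test among stages and 6 pairs, later minus earlier, were adjusted by Benjamini-Hochberg over all genes at 0.05. The script was tested on simulated data. Correlations used scipy 1.17.1 with 2-sided permutation tests.

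Named members are the isoforms of complexes IV and V, the highest of each complex, those with the smallest F test p and those with the largest SD over mice. The members, lists and tests were chosen with earlier results of these data known. Alternatives changed the pseudocount, the filter, the scaling, the weights, the trend, covariates, a replicate block, the libraries in the fit, and left out each library. Another, without metestrus-3 and proestrus-2, was chosen after seeing the data. Body weights, hormones and read counts were not used here.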

Additional observations from a re-analysis of the deposited data

Results flagged for a closer look

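In 8 of 140 groups of 5 mice 1 library stood apart from the other 4 by Dixon's criterion, which chance alone meets in about 1 of 20 groups. The muscle isoform Cox6a2 was at 51.7 FPKM in metestrus-3 (others 0.120 to 0.264 FPKM) and at 2.44 FPKM in proestrus-5 (others 0.103 to 0.520 FPKM), where Actn3 was at 554 and 9.50 FPKM. Atp5g1 was at 9.58 FPKM in metestrus-3 (others 4.77 to 5.52 FPKM). Metestrus-1 held high values of Uqcrq, 72.7 FPKM (others 40.4 to 47.5), Cox5a, 45.7 FPKM (others 30.5 to 33.1), and Ndufb7, 13.5 FPKM (others 9.24 to 10.3), and 73 of 78 subunits were above their own median in this mouse. Cox6b2, the testis isoform, was low there at 0.601 FPKM (others 0.762 to 0.826). The level of the assembly or related factors in diestrus-5 was 0.07 (0.0729, others -0.0715 to -0.0303), in the mouse in which all subunits were above their median.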

How the results depend on the processing

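The log2 changes of the named members, each in its comparison of smallest p, kept their sign under each alternative. That comparison was picked by its p in the same data, so a kept sign was likely beforehand. Of 2653 values recomputed 24 passed a threshold or left a count of 0, and 76 moved. Of 198 recomputed medians of the subunits 4 changed sign, each from diestrus to proestrus (0.04 in the report), at -0.03 with an equal total, -0.01 with an equal total of nuclear genes, -0.04 without proestrus-4 and -0.05 without diestrus-3. Array weights, which give less weight to libraries far from their stage, called 2 members among the 4 stages (Uqcrq, adjusted p = 0.0477, and Ndufaf8, adjusted p = 0.0344, limma) beside 767 of all genes (5.48%), 1 from metestrus to diestrus (Uqcrq) beside 1035 (7.40%) and 3 from proestrus to metestrus (Uqcrq, Sdhaf1 and Ndufaf8) beside 494 (3.53%). Leaving out 1 library at a time gave 0 to 1 members among the stages, from proestrus to estrus and from proestrus to metestrus, and 0 in the other pairs. The call in each was Ndufaf8, without proestrus-2. Beside it 184 of 13900 genes (1.32%) were called among the stages, 46 (0.331%) from proestrus to estrus and 329 (2.37%) from proestrus to metestrus. Without metestrus-3 and proestrus-2 together 1 member, Ndufaf8, was called among the stages, beside 189 of 13845 genes (1.37%), and 1 from proestrus to metestrus, beside 289 (2.09%). At an unadjusted p under 0.05 scaling and weighting moved the counts in both directions. The 19 members lower from proestrus to estrus were 10 with median-ratio size factors (2.69% of all genes) and 31 with array weights (3.24%). The 13 higher from estrus to diestrus were 8 with median-ratio size factors (3.10%), 31 with an equal total (2.62%) and 24 with an equal total of nuclear genes (2.60%). The 13 lower from proestrus to metestrus were 5, 23 and 26 with median-ratio size factors, the nuclear total and array weights (4.08%, 4.54% and 6.28%), and the 5 higher from metestrus to diestrus were 1, 22 and 13 (5.39%, 7.37% and 9.54%), and 21 with an equal total (5.91%). With median-ratio size factors the distance between the highest and lowest mouse was 1.11 for complex I, 1.19 for complex II, 1.28 for complex IV and 1.05 for complex V. The correlation of Ucp1 with Cox7a1 was 0.359 to 0.673 when 1 mouse was left out, the highest without metestrus-3. The same numbers in different stages did not pair the mice: of 30 pairs with a number in common 10 had a correlation above 0.1 (median -0.01), and 2 of 20 libraries were closest to a library of their own number. With a replicate block 0 members were called in each test, and 6 in place of 13 were higher from estrus to diestrus at an unadjusted p under 0.05 (2.18% of all genes).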

Other observations

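Cox4i1, the broad form of the largest nuclear subunit of complex IV, did not follow the other subunits in several mice. Its median over all mice was 216 FPKM. It was above that in metestrus-4 at 314 FPKM and in estrus-1 at 234 FPKM, where 31 and 2 of 78 subunits were above their own median, and below it in diestrus-1 at 189 FPKM, where 53 were. Its means were 236 ± 57.7 FPKM (SD, n = 5) in proestrus mice, 188 ± 37.1 in estrus mice, 248 ± 49.8 in metestrus mice and 231 ± 85.3 in diestrus mice (adjusted p of the F test 0.840, limma). In contrast to most subunits its mean was higher at metestrus than at diestrus.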
